A study of Mus musculus with 15 samples.

Results

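The 2 transcripts described here are those of the transgenes that make the M-Smo mouse model of medulloblastoma: the Cre recombinase of Math1-Cre and the SmoM2-EYFP fusion that Cre switches on. They were taken as the rows CRE_RECOMBINASE and SmoM2-EYFP of the deposited single-cell tables, 2 of 27803 gene rows found over all 15 tables. Drop-seq, a droplet method that counts the 3′ ends of mRNA molecules by unique molecular identifiers (UMIs), was applied to one library per animal. The wild-type (WT) group held 5 untreated C57BL/6 mice whose cerebella were taken at postnatal day 7 (P7). Both tumor groups carried Math1-Cre and loxP-flanked SmoM2/EYFP alleles on a C57BL/6 background and were collected at P15, after 3 daily intraperitoneal doses of the solvent alone (Vehicle, n = 5) or of vismodegib at 75 mg/kg (Vismodegib, n = 5). Reads of both kinds were aligned to a mouse reference that held both transgenes as artificial chromosomes, those of the tumors after a first alignment that sorted mouse from spiked-in human cells. Tumor and WT libraries differed in this first step, in capture device and in age, which cannot be told apart from the genotype in the comparison with WT.

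In the mouse cerebellum, granule neurons arise from progenitors of the external granule layer (CGNPs) that express the transcription factor ATOH1, also called MATH1, and that divide in response to Sonic hedgehog (SHH). In Math1-Cre mice a cloned Atoh1 regulatory sequence drives Cre, so Cre mRNA is a product of the promoter's present activity and ceases to be made when that activity ends. SmoM2 is a constitutively active form of the SHH receptor component SMO that was fused to yellow fluorescent protein and placed behind a loxP-flanked stop at the Rosa26 locus, from which it is transcribed in cells with a past or present Cre activity and in all their descendants. Vismodegib binds SMO and blocks the signal to the GLI transcription factors.

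After filtering, 18293 Vehicle, 12429 Vismodegib and 7224 WT cells were kept, with per-animal medians of 1141 to 2597, 1183.5 to 2368 and 1082.5 to 1625 UMIs per cell. Total UMIs per animal ranged from 4307404 to 17708677 for Vehicle, from 2601001 to 10922460 for Vismodegib and from 2310474 to 5952919 for WT. Cells were clustered with both transgenes and all genes of the lists used below left out, and clusters were named from fixed marker lists. The 4 groups of the granule lineage were called Node A-like (mitotic CGNPs), Node B-like (scored by DNA replication genes), Node C-like (early differentiating granule cells) and Node D-like (late granule neurons), and together CGNP-like. The largest Node B-like cluster in tumors, cluster 0 with 5899 cells, had none of these replication markers among its 10 leading genes, which included Gm17322 and Hes1, so the class name stands for the score and not for cells shown to replicate. Eomes, which the study used to tell unipolar brush cells from granule neurons, was among the 10 leading genes of 2 clusters. These were tumor cluster 5 (Node C-like, 1754 cells) and the WT Node D-like cluster (1010 cells). Their content of unipolar brush cells was not tested. Of 9 marker genes withheld from the clustering 8 were highest in their own class, as Aqp4 reached 5118 UMIs per 1000000 UMIs in astrocyte-like cells against 15.9 in CGNP-like cells, Sox10 430 against 0.857 in oligodendrocyte-like cells, and C1qb 5947 against 6.46 in microglia-like cells (means over 10 tumors). The exception was Gli1, set for Node B-like cells, which was at 91.5 there and at 98.5 in Node A-like cells. Of 105 pairs of libraries 71 shared any cell barcode, and none shared more than 13. The transgene rows matched the genotype label in every library.

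Both transcripts were near 0 in WT cerebellum and present in every tumor. The Cre level in all cells of the WT animals was 0.411, 2.01, 1.29, 1.93 and 0.597 CPM (UMIs of the gene per 1000000 UMIs of the cells summed), from 16 UMIs in all. In Vehicle tumors it was 2295, 2153, 997, 1768 and 2686 CPM, and in Vismodegib tumors 716, 682, 974, 1109 and 963. Thus each tumor lay far above each WT animal, while Vehicle 3 lay inside the range of the Vismodegib tumors and below the other Vehicle tumors. The SmoM2-EYFP level was 0.206, 0, 0, 0.55 and 0 CPM in the WT animals, from 3 UMIs, and the tables of WT 3 and WT 5 listed no such row. It was 36.3, 25.6, 33.1, 24.6 and 29.1 CPM in Vehicle tumors and 21.8, 21.7, 33.1, 17.0 and 24.9 in Vismodegib tumors, so the treatment groups overlapped (the plot of levels by animal).

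**Figure D1:**
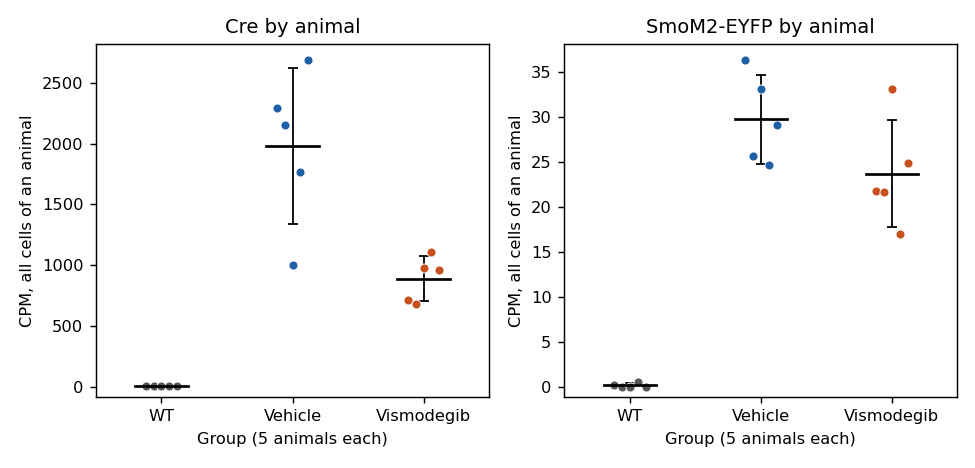
Level of Cre and SmoM2-EYFP in all kept cells, in CPM, for each of 15 animals, with the mean and SD of each group of 5. WT animals sit at or below 2.01 for Cre and 0.55 for SmoM2-EYFP, and 4 of 5 Vehicle tumors sit above every Vismodegib tumor for Cre.

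The mean Cre level was 1979.5 ± 640.3 CPM in Vehicle tumors against 1.25 ± 0.737 in WT (SD, n = 5 each), with a pooled ratio of 1905 (95% counting interval 1173 to 3332). For SmoM2-EYFP the means were 29.7 ± 4.95 and 0.151 ± 0.240, with a pooled ratio of 133 (counting interval 45.3 to 645, since only 3 UMIs stood in WT). Since WT mice carry neither transgene, this difference was fixed by the design, and it is given as a check of the labels with no test. Both rows were among the 48% of 13636 genes called between Vehicle and WT, and nothing is read from that count. The WT levels served as the background of the assay for these rows, and they fell in the granule lineage and beyond it, with 12 Cre UMIs in CGNP-like cells, 3 in astrocyte-like and 1 in endothelial-like cells, and all 3 SmoM2-EYFP UMIs in Node B-like cells.

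Cre fell in tumors treated with vismodegib, from 1979.5 to 889 ± 183 CPM, which was 2.23-fold lower (2-sided exact permutation test, p = 0.0159). The log2 fold change over all cells was -1.18 ± 0.24 (SE; edgeR, quasi-likelihood, adjusted p = 0.00627 by Benjamini-Hochberg over all genes), with 13.9% of 13190 genes called. SmoM2-EYFP was 23.7 ± 5.96 CPM against 29.7 ± 4.95, a difference of -6.06 that did not pass (exact permutation test, p = 0.127; edgeR log2 fold change -0.37 ± 0.19, adjusted p = 0.219). Without Vismodegib 3 the difference was -8.41 (exact permutation test, p = 0.0397). In earlier results of these data the tumors fell into 2 sets that no label names, Vehicle 1 and 3 with Vismodegib 1 to 3 and the remaining 5 tumors. Mean Cre went from 1646 to 790.3 in the first set and from 2202 to 1036 in the second. Mean SmoM2-EYFP went from 34.7 to 25.5 in the first set and from 26.4 to 20.9 in the second.

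The genes whose control elements the transgenes borrow, or whose product they alter, are endogenous neighbours for these levels, and all 3 lie on chromosome 6 of GRCm38. Atoh1 (6:64729125-64731245, plus strand), the source of the Cre promoter, was at 97.8, 129, 53.4, 90.3 and 130.1 CPM in Vehicle tumors and at 39.0, 44.1, 27.3, 51.5 and 39.2 in Vismodegib tumors, against 33.4 to 50.8 in WT. Vehicle 3 was the lowest Vehicle tumor for Atoh1 as it was for Cre. Atoh1 was 1.33 ± 0.24 lower on the log2 scale in Vismodegib tumors (edgeR log2 fold change -1.33, adjusted p = 0.00296).

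Smo (6:29735503-29761365, plus strand), the normal counterpart of SmoM2, was at 19.0 to 31.4 CPM in Vehicle and 12.8 to 29.4 in Vismodegib tumors and was not called (edgeR log2 fold change -0.21, adjusted p = 0.651). SmoM2 shares coding sequence with Smo but ends in EYFP sequence, and per the study reads were assigned by 3′ sequence; whether reads of one row entered the other, or passed between Smo and Gm13717, which overlaps it on the same strand, was not tested. Gt(ROSA)26Sor (6:113067428-113077333, minus strand), the noncoding transcript of the locus that carries SmoM2-EYFP, was at 17.3 to 22.0 in Vehicle and 16.3 to 21.5 in Vismodegib tumors, with an edgeR log2 fold change of -0.00 (adjusted p = 1.00). It was lower in Vehicle tumors than in WT, where it was at 34.1 to 48.3 (edgeR log2 fold change -1.17 ± 0.16, adjusted p = 5.58e-05).

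By cell class, Cre was highest in Node B-like and Node C-like cells. In Vehicle tumors the Cre level of Node A-like cells was 1035, 1342, 524, 1420.0 and 1760.3 CPM, and that of Node B-like cells 2769.7, 2785, 1308, 2199.9 and 3404. Node C-like cells had 3158, 2745, 1354, 2377 and 4139, and Node D-like cells 1018, 999, 348, 678 and 1638. In each of these 5 tumors Cre was higher in Node B-like and Node C-like than in Node A-like cells, and lowest in Node D-like cells. In Vismodegib tumors Node A-like cells had 739, 744, 899.9, 1448 and 1146 CPM, Node B-like cells 962, 893, 1198, 2049.8 and 1705, Node C-like cells 949.5, 745, 1541, 1449 and 1642, and Node D-like cells 412, 373, 472, 615 and 624. Here Node D-like cells were again the lowest of the 4 stages in each tumor.

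Over the 10 tumors, Cre was higher in Node B-like than in Node A-like cells by 822 ± 587 CPM (10 of 10 tumors, exact sign permutation, adjusted p = 0.00370 over 72 class pairs). Node A-like cells exceeded Node D-like cells by 388 and Node D-like exceeded astrocyte-like cells by 458, in 10 of 10 tumors and with the same exact adjusted p. Node C-like and Node B-like cells differed by 82.6 ± 359, with Node C-like higher in 5 of 10 tumors (exact adjusted p = 0.539). Of 36 class pairs tested for Cre, 29 passed. Within a tumor, classes share a library, and with 5 tumors of one treatment no pair could pass (smallest exact p = 0.0625).

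**Figure D2:**
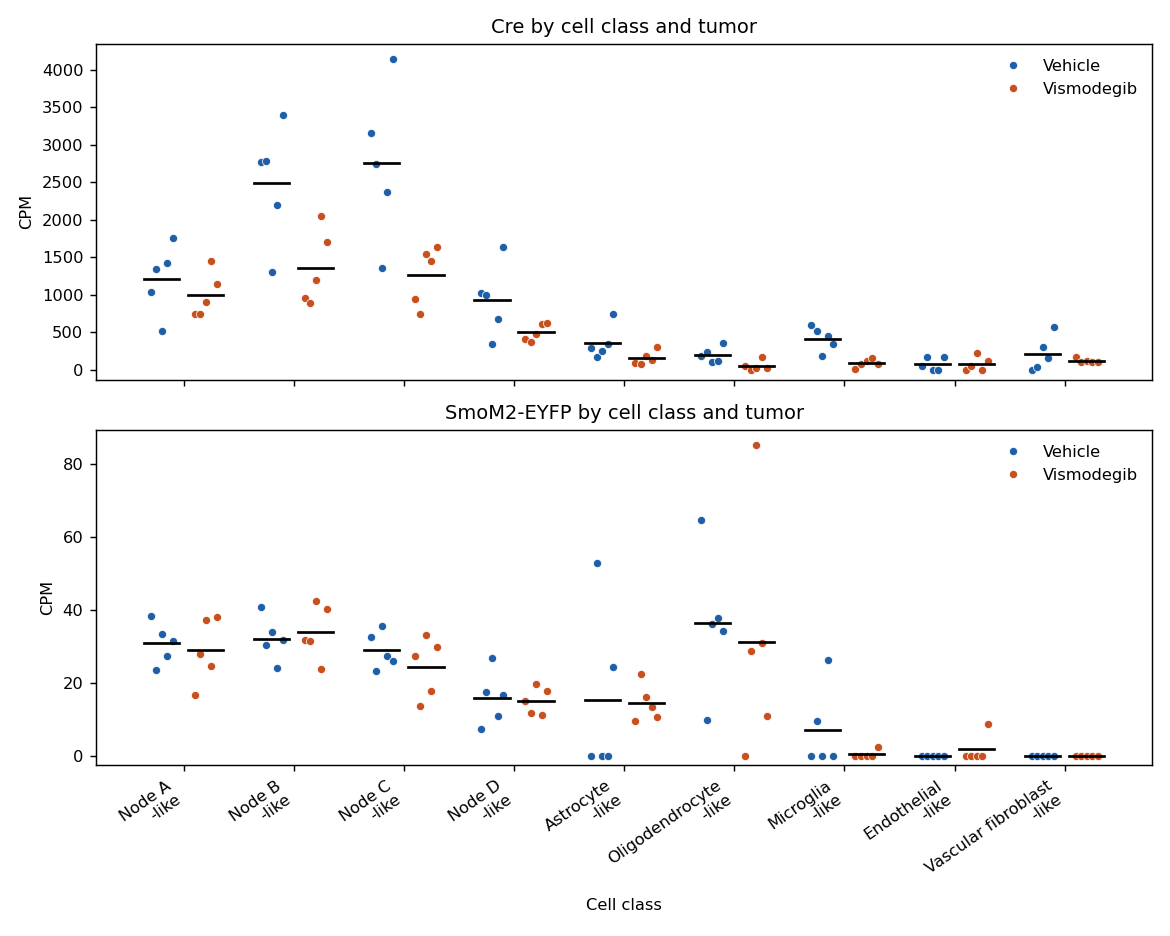
Level of Cre and SmoM2-EYFP by cell class, in CPM, with 1 point per tumor and black bars at the mean of 5 tumors per treatment. Cre is highest in Node B-like and Node C-like cells, and SmoM2-EYFP in oligodendrocyte-like cells overlaps its range in Node A-like to Node C-like cells.

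Along the granule lineage SmoM2-EYFP was lowest in Node D-like cells. In Vehicle tumors it averaged 30.8 ± 5.61, 32.1 ± 5.99, 28.9 ± 5.0 and 15.8 ± 7.39 CPM from Node A-like to Node D-like cells in turn (SD, n = 5). In Vismodegib tumors the means were 28.9 ± 9.02, 33.9 ± 7.45, 24.3 ± 8.3 and 15.0 ± 3.74. The difference between Node C-like and Node D-like cells was 11.2 ± 6.4 over 10 tumors (10 of 10, exact sign permutation, adjusted p = 0.00370). It was the single step between neighbours in the order of SmoM2-EYFP levels that passed, and of all 36 pairs 22 passed.

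Cre was lower with vismodegib in the granule lineage taken as a whole. In CGNP-like cells Cre was 2418, 2243, 1032, 1891 and 2875 CPM in Vehicle and 811, 726, 1069, 1243 and 1124 in Vismodegib tumors, so the groups overlapped through Vehicle 3. The log2 fold change was -1.06 ± 0.25 (edgeR, adjusted p = 0.0113), 2.09-fold lower, among the 13.2% of 12477 genes called in this class. The exact permutation test gave p = 0.0317 for the same values and 0.102 after adjustment over 16 class tests. The call was kept in each alternative and without any 1 tumor (adjusted p from 0.000443 to 0.0327).

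Stage by stage, the log2 fold change of Cre was -0.29 ± 0.27 in Node A-like cells (edgeR, adjusted p = 0.781), where 2.3% of genes were called. It was -0.85 ± 0.28 in Node B-like cells (edgeR, adjusted p = 0.126; 3.32% called) and -0.88 ± 0.28 in Node D-like cells (adjusted p = 0.333; 0.176% called). Within the 2 sets of tumors Cre passed in Node B-like cells, and without a filter on low counts it passed in both classes. In Node C-like cells Cre passed, at -1.10 ± 0.27 (edgeR, adjusted p = 0.0397; 2.74% called). The Node C-like call was lost without any 1 of 8 tumors (all but Vehicle 3 and Vismodegib 5) and at both other clustering resolutions, where the fold change was -0.86 and -1.03. SmoM2-EYFP changed by -0.25 ± 0.19 in CGNP-like cells (95% interval -0.61 to 0.12; edgeR, adjusted p = 0.452), by -0.04 (Node A-like), 0.08 (Node B-like) and -0.26 (Node C-like; adjusted p from 0.720 to 0.978), and its counts in Node D-like cells were too low for the fit.

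The steps of Cre from Node A-like up to Node B-like and Node C-like cells were smaller in Vismodegib tumors. The ratio of Node B-like to Node A-like Cre was 2.68, 2.08, 2.5, 1.55 and 1.93 in Vehicle tumors and 1.30, 1.2, 1.33, 1.42 and 1.49 in Vismodegib tumors. The ratio of Node C-like to Node A-like Cre was 3.05, 2.05, 2.59, 1.67 and 2.35 in Vehicle and 1.28, 1.00, 1.71, 1.00 and 1.43 in Vismodegib tumors. For the first ratio the groups did not overlap, and for the second Vehicle 4 lay below the highest Vismodegib tumor. These tests were chosen after the values were seen.

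The log2 level of Node A-like over Node B-like Cre rose by 0.65 (from -1.08 to -0.43; 2-sided exact permutation test, p = 0.00794, adjusted p = 0.0476 over 6 stage pairs). Node A-like over Node C-like Cre rose by 0.87 (exact p = 0.0159, adjusted p = 0.0476), and the remaining 4 pairs did not pass (exact adjusted p from 0.0794 to 0.540). Among these 4, log2 Node A-like over Node D-like Cre went from 0.44 in Vehicle to 0.98 in Vismodegib tumors, a wider step (exact adjusted p = 0.0794). Within the 2 sets of tumors the exact p was 0.01 for the 2 pairs that passed, the smallest that 100 assignments allow. The stages did not hold the same clusters in the treatments: cluster 0 held 58.4% of Node B-like cells in Vehicle and cluster 1 held 49.5% in Vismodegib tumors, and for Node C-like cells these were cluster 2 with 64.8% and cluster 6 with 39.4%. Like cluster 0, cluster 6 had none of its class markers among its 10 leading genes, which included Pnoc and L1cam. Mean Cre went from 3065 to 1585 CPM in cluster 0, from 1920 to 1331 in cluster 1, from 3460 to 1567 in cluster 2 and from 1165 to 937 in cluster 6. For Node D-like cells these were cluster 7 with 51.2%, where the hemoglobin gene Hbb-bs was higher by 2.12 on the log2 scale than in other cells and Cre went from 1248 to 723, and cluster 3 with 61.2%, where it went from 465 to 449.

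**Figure D3:**
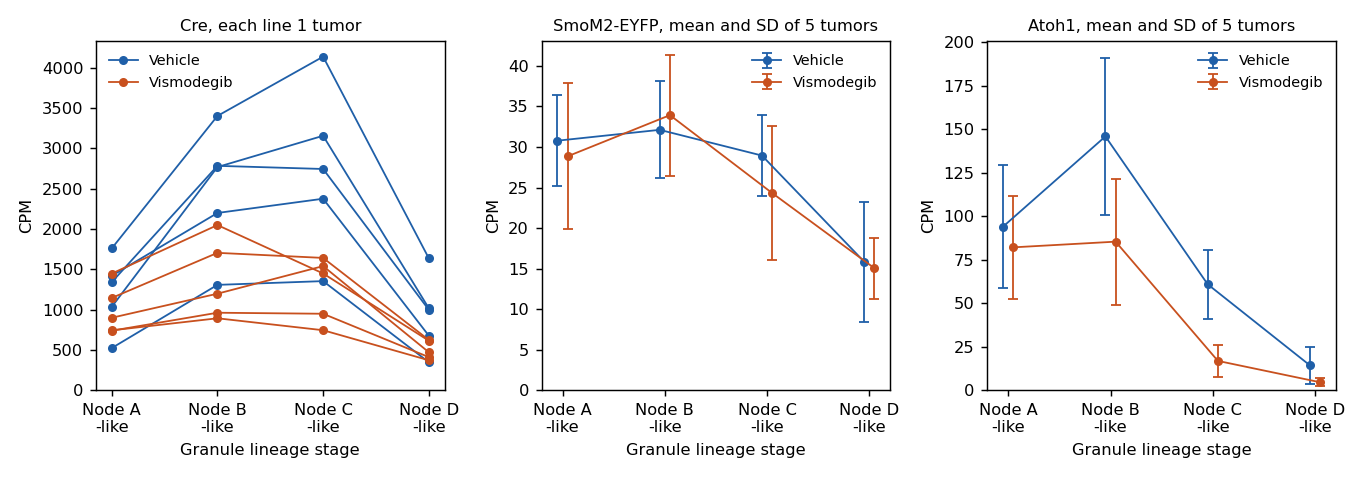
Levels along the granule lineage, in CPM, with 1 line per tumor for Cre and mean ± SD of 5 tumors per treatment for SmoM2-EYFP and Atoh1. Cre climbs from Node A-like to Node B-like cells by 1.55 to 2.68 times in Vehicle and by 1.2 to 1.49 times in Vismodegib tumors.

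The all-cell and CGNP-like levels of Cre mix the level within a class with the share of that class. Node D-like cells, low in both transcripts, made up 8.58% of Vehicle and 32.8% of Vismodegib cells on average, and Node B-like cells 44.8% and 23.6%. With the 4 stages weighted equally, mean log2 Cre was 0.74 lower in Vismodegib tumors (difference -0.74, exact permutation test, p = 0.0635, a test added after the values were seen).

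Atoh1, whose promoter drives Cre, had its highest mean at the Node B-like stage, with no test between stages. In Vehicle tumors Atoh1 was at 94.1 ± 35.2, 146 ± 45.2, 60.9 ± 19.9 and 14.3 ± 10.8 CPM from Node A-like to Node D-like cells in turn, whereas Cre was as high in Node C-like as in Node B-like cells within its spread. In Vismodegib tumors Atoh1 was at 82.2 ± 29.7, 85.4 ± 36.2, 16.9 ± 9.0 and 4.6 ± 2.4, with Node A-like and Node B-like cells level within their spread. Atoh1 fell with vismodegib in CGNP-like cells (edgeR log2 fold change -1.22 ± 0.24, adjusted p = 0.0042). Cre relative to Atoh1 in CGNP-like cells was 4.30 on the log2 scale in Vehicle and 4.47 in Vismodegib tumors, a difference of 0.17 (exact permutation test, p = 0.5). Cre relative to Neurod1, a factor of granule neuron differentiation, was lower by 2.07 in Vismodegib tumors (difference -2.07, exact p = 0.00794, adjusted p = 0.0397 over 5 ratios, in 5 of 5 tumors below all Vehicle tumors), and relative to Barhl1, Gli1 and SmoM2-EYFP no difference passed (exact adjusted p from 0.258 to 0.5). These ratios too were added after the values were seen.

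Among genes fixed as background for the transgenes, 14 of 15 SHH pathway genes could be tested in CGNP-like cells, of which 7 fell with vismodegib and 0 rose (4.68% and 8.56% of all genes tested), with a median log2 fold change of -0.75 against 0.0024 over all genes tested. By stage, 4 of 14 fell in Node A-like (median -0.16), 4 of 14 in Node B-like (-0.47), 3 of 11 in Node C-like (-0.80) and 3 of 6 in Node D-like cells (-0.81), and 0 rose. Of all genes tested at these stages in turn, 151 of 9558, 219 of 10243, 135 of 9337 and 7 of 6815 fell, and 69, 121, 121 and 5 rose. Among the SHH pathway genes that fell in CGNP-like cells, the SHH target and inhibitor Hhip was at -2.71 ± 0.21, the receptor Ptch1 at -1.44 ± 0.23, the coreceptor Gas1 at -1.13, Sfrp1 at -0.98, and the growth regulators Mycn and Ccnd1 at -0.96 and -1.37 (edgeR). Gli1, a direct target of the pathway, was at -0.48 (edgeR, adjusted p = 0.383). Of 8 granule lineage genes 3 rose, Neurod1 (1.12), Cntn2 (1.12) and Fat2 (2.81), and 2 fell, Atoh1 and Barhl1 (-0.63 ± 0.13), with a median of 0.30. By stage, Atoh1 was at -0.16 in Node A-like (edgeR, adjusted p = 0.909), -0.73 in Node B-like (adjusted p = 0.207) and -1.72 in Node C-like cells (adjusted p = 0.00738), and Barhl1 was called in Node B-like and Node C-like but not in Node A-like cells (-0.08). None of the 3 genes of the Rosa26 region was called (Gt(ROSA)26Sor 0.11, Thumpd3 -0.19, Setd5 -0.04).

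In single CGNP-like cells Cre was detected in most and SmoM2-EYFP in few. At least 1 Cre UMI stood in 75.6 ± 6.97% of Vehicle and 59.1 ± 8.15% of Vismodegib cells, at median depths of 1692 and 1690 UMIs. With each cell thinned to 500 UMIs the shares were 48.8 ± 11.1% and 31.1 ± 3.22%. The median CGNP-like cell held 3 Cre UMIs in Vehicle and 1 in Vismodegib tumors, the highest held 76 and 65, and 15.2% and 5.69% of cells held 10 or more. SmoM2-EYFP was seen in 6.18 ± 1.47% of Vehicle and 5.29 ± 2.59% of Vismodegib CGNP-like cells, or 1.45 ± 0.27% and 1.18 ± 0.29% after thinning, with no cell above 3 UMIs. In CGNP-like cells of WT animals the shares were 0.216% for Cre and 0.041% for SmoM2-EYFP. Thinning can only lower such shares, so nothing is read from their fall. Per the study the method may miss single markers, so a cell without a SmoM2-EYFP UMI was not read as a cell without the transcript.

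Detection of Cre and of SmoM2-EYFP in the same CGNP-like cell was examined within class and within 5 bins of UMIs per cell. The log2 odds ratio averaged 0.04 ± 0.47 over 10 tumors (7 of 10 above 0, exact sign permutation, p = 0.768), from -1.13 in Vismodegib 1 to 0.72 in Vehicle 3, with 1245 cells holding both. For comparison, and added after that result was seen, Cre and Atoh1 had 0.62 ± 0.40 (9 of 10 tumors, exact p = 0.00391, adjusted p = 0.0117), and Atoh1 and SmoM2-EYFP had 0.17 ± 0.26 (7 of 10, exact p = 0.0645, adjusted p = 0.0967).

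Outside the granule lineage, Cre was low and SmoM2-EYFP was not low in every class. Oligodendrocyte-like cells, which include precursors and myelin-forming cells, had Cre at 178, 242, 108, 113 and 359 CPM in Vehicle and at 47.1, 0, 21.3, 175 and 17.9 in Vismodegib tumors. In the same cells SmoM2-EYFP was at 64.6, 9.67, 36.0, 37.7 and 34.1 in Vehicle and at 0, 28.6, 85.0, 30.9 and 10.8 in Vismodegib tumors. These SmoM2-EYFP values rested on 33 UMIs in Vehicle and 14 in Vismodegib tumors, from 419 and 156 cells. They overlapped those of Node B-like cells, with a mean difference of 0.72 ± 23.4 CPM (exact sign permutation, adjusted p = 0.943), and were above those of microglia-like cells by 29.9 ± 27.7 (9 of 10 tumors, exact adjusted p = 0.0067) and of vascular fibroblast-like cells by 33.7 ± 25.6 (exact adjusted p = 0.0067).

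Each transgene was set against 8 granule lineage genes, with each level taken as a percent of that in CGNP-like cells of the same tumor, with 0.5 added to the counts. In oligodendrocyte-like cells SmoM2-EYFP stood at 187, 55.6, 124, 163 and 117% in Vehicle and 31.8, 191, 275, 187 and 44.0% in Vismodegib tumors, where the 8 genes stood at 11.4 ± 4.91%. The value of Vismodegib 1, which had 0 UMIs, comes from the 0.5 added alone. The log2 ratio was 3.45 ± 1.00, or 10.9-fold (exact sign permutation over 10 tumors, adjusted p = 0.00977 over 10 tests), with each of the 9 tumors that had a SmoM2-EYFP UMI above 0. It was 3.56 without Vismodegib 1 (exact adjusted p = 0.0195) and 3.08 with 0.1 added to the counts (exact adjusted p = 0.0195). Cre in the same cells stood at 7.60 ± 4.5% and at -0.76 on the log2 scale against the 8 genes (exact adjusted p = 0.0659). Whether RNA from other cells takes part in either level was not tested.

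**Figure D4:**
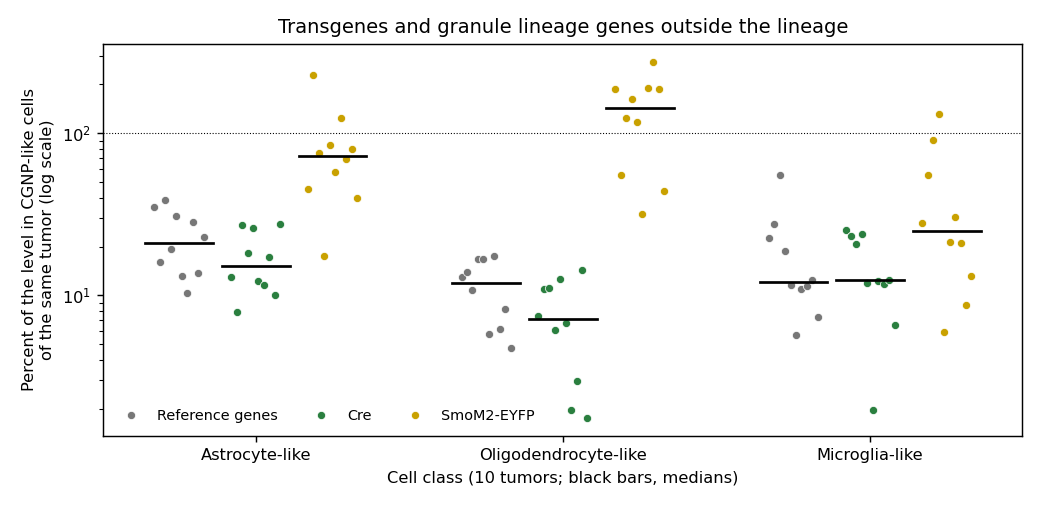
Level in astrocyte-like, oligodendrocyte-like and microglia-like cells as a percent of the level in CGNP-like cells of the same tumor (log axis, 0.5 added to counts), for the 8 granule lineage genes in grey, Cre in green and SmoM2-EYFP in yellow, with black bars at the median of 10 tumors. In oligodendrocyte-like cells SmoM2-EYFP averages 138 ± 77.9% against 11.4 ± 4.91% for the granule lineage genes, where the lowest point, Vismodegib 1, had 0 UMIs.

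Astrocyte-like cells held 13 SmoM2-EYFP UMIs in Vehicle and 17 in Vismodegib tumors, at 0, 52.7, 0, 0 and 24.2 and at 9.47, 22.4, 16.1, 13.4 and 10.6 CPM. No SmoM2-EYFP UMI stood in 3 of the Vehicle tumors, while each Vismodegib tumor had some. The means of 15.4 ± 23.3 and 14.4 ± 5.16 CPM stood beside 30.3 ± 4.93 and 25.5 ± 6.31 in CGNP-like cells. With 0.5 added to the counts, which lifts the 3 tumors without a UMI, the level averaged 82.2 ± 58.6% of that in CGNP-like cells against 22.8 ± 9.91% for the granule lineage genes, a log2 ratio of 1.69 (9 of 10 tumors, exact sign permutation, adjusted p = 0.0130), which was 0.85 and did not pass with 0.1 added to the counts (exact adjusted p = 0.288). Cre in astrocyte-like cells was 297, 171, 257, 340.1 and 747 CPM in Vehicle and 94.7, 78.3, 177, 124 and 309.6 in Vismodegib tumors, at -0.41 on the log2 scale against the 8 genes (exact adjusted p = 0.0618). Between the treatments Cre differed by -1.21 ± 0.37 in astrocyte-like cells (edgeR log2 fold change, adjusted p = 0.114; 1.54% of genes called) and by -1.55 ± 0.51 in oligodendrocyte-like cells (adjusted p = 0.0900; 5.31% called), neither of which passed. With 1 tumor left out these ranged from -1.75 to -0.63 and from -3.13 to -1.11.

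Within the glial classes the transcripts were also split by single genes, with cells of the 10 tumors pooled and Poisson intervals that cover counting error only. Astrocyte-like cells with a UMI of Olig1, a transcription factor gene of the oligodendrocyte lineage, held SmoM2-EYFP at 39.1 CPM (22.8 to 62.6, 131 cells) against 8.52 (4.54 to 14.6, 510 cells) in those without, and Cre was at 317 and 311. Split by Gfap, a gene of mature and reactive astrocytes, the same cells held SmoM2-EYFP at 10.4 (5.82 to 17.2, 336 cells) with and 29.0 (16.2 to 47.7, 305 cells) without a UMI, and Cre at 157 and 745. Both transcripts were thus lower in Gfap-positive cells, whose median depth was 3338.5 against 1249 UMIs. Oligodendrocyte-like cells with a UMI of Pdgfra, the receptor that marks oligodendrocyte precursors, held SmoM2-EYFP at 43.0 (29.2 to 61.1, 313 cells) against 19.8 (11.3 to 32.2, 262 cells), and Cre at 246 against 121. Those with a UMI of Mog, a gene of mature myelin, held SmoM2-EYFP at 17.7 (6.51 to 38.6, 61 cells) against 34.5 (24.7 to 46.7), and Cre at 35.5 against 221. In the oligodendrocyte-like splits the 2 transcripts thus had the same direction. Splits by a detected gene also sort cells by depth, and cells are not replicates, so no test was made. They also mix treatments, whose Cre differed. Pooled Cre was 255 CPM in Vehicle and 69.5 in Vismodegib tumors for oligodendrocyte-like cells, and 561 and 200 for astrocyte-like cells. The part of the treatment mix in these splits was not tested. The split genes were not confined to glial cells. Among cells of all classes without a SmoM2-EYFP UMI, Pdgfra was seen in 18.1% in Vehicle and 9.34% in Vismodegib tumors, and Olig1 in 6.84% and 2.39%. Oligodendrocyte-like cells were 2.29% and 1.26% of all cells. Whether Pdgfra or Olig1 UMIs in the glial classes came from RNA of other cells was not tested.

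Microglia, which arise outside the neural lineage, gave the level of the transgenes in cells that should lack them. Microglia-like cells held 4 SmoM2-EYFP UMIs in 10 tumors, at 0, 9.54, 0, 26.1 and 0 CPM in Vehicle and 0, 0, 0, 0 and 2.49 in Vismodegib tumors. Their Cre was at 597, 515, 183, 444 and 342 in Vehicle and 10.6, 82.7, 117, 154 and 72.2 in Vismodegib tumors, with every Vismodegib tumor below every Vehicle tumor. The log2 fold change of Cre was -2.16 ± 0.37 (edgeR, adjusted p = 0.0232, with 0.318% of 1570 genes called; exact permutation test, p = 0.00794, and 0.102 after adjustment over the 16 class tests, which does not pass), or 4.48-fold lower, and the call was lost without Vehicle 1, 2, 4 or 5 or Vismodegib 5 (adjusted p from 0.0541 to 0.151).

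Relative to CGNP-like cells of the same tumor, Cre in microglia-like cells was at 15.0 ± 7.86%, beside 18.3 ± 14.5% for the granule lineage genes (log2 ratio -0.26, exact sign permutation, adjusted p = 0.386). By treatment, log2 Cre in microglia-like over CGNP-like cells was -2.30 ± 0.44 in Vehicle and -3.75 ± 1.15 in Vismodegib tumors, a difference of -1.45 (2-sided exact permutation test, p = 0.0238, with p up to 0.0714 when 1 tumor was left out), in a test added after the values were seen. The granule lineage genes were lower too, at 11.6 to 54.8% in Vehicle and 5.7 to 12.5% in Vismodegib tumors. Relative to these genes, log2 Cre overlapped between the treatments, at -1.4 to 0.35 in Vehicle and -1.54 to 0.16 in Vismodegib tumors. Whether Cre fell more than these genes was not tested. At least 1 Cre UMI stood in 29.1 ± 6.32% of Vehicle and 13.3 ± 6.89% of Vismodegib microglia-like cells, and in 12.2 ± 2.27% and 4.24 ± 2.47% after thinning to 500 UMIs. Beside these, the thinned Cre shares were 7.48% and 2.22% in oligodendrocyte-like, 15.2% and 9.02% in astrocyte-like, 8.69% and 5.37% in vascular fibroblast-like and 3.27% and 3.23% in endothelial-like cells. Oligodendrocyte-like cells thus lay below microglia-like cells in both treatments, astrocyte-like cells above them in both, and vascular fibroblast-like cells above them in Vismodegib tumors, by the means and with no test. For SmoM2-EYFP the thinned shares were 2.09 ± 0.86% and 1.85 ± 2.73% in oligodendrocyte-like against 0.37% and 0.01% in microglia-like cells, whose median depths were 1791 and 2981 against 2114 and 2231 UMIs.

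The vascular classes were small. Endothelial-like cells held 1 SmoM2-EYFP UMI in 117 cells, and vascular fibroblast-like cells 0 in 289 cells, which allows a share of up to 1.04% of cells with a UMI or a level of up to 4.03 CPM. Cre was at 45.7, 171, 0, 0 and 165 CPM in endothelial-like cells of Vehicle and 0, 48.0, 221, 0 and 122 of Vismodegib tumors, and at 0, 31.9, 310.4, 161 and 568 and 168, 106, 112, 104 and 105 in vascular fibroblast-like cells. Against the granule lineage genes Cre was at -1.03 ± 1.60 on the log2 scale in endothelial-like cells (below 0 in 8 of 10 tumors, exact sign permutation, adjusted p = 0.0659) and at -0.51 ± 1.98 in vascular fibroblast-like cells (exact adjusted p = 0.555), and neither passed. For SmoM2-EYFP the log2 ratio in endothelial-like cells was 2.82 and passed the same test (10 of 10 tumors, exact adjusted p = 0.00977). This ratio was set by the 0.5 added to 1 UMI, so nothing is read from its passing, and with 0.1 added it was 0.78. In microglia-like cells, with 4 UMIs in 10 tumors, the SmoM2-EYFP ratio was 0.84 (exact adjusted p = 0.0618).

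Of the cells with a SmoM2-EYFP UMI, 1046 came from Vehicle and 577 from Vismodegib tumors. In Vehicle tumors 309 were Node A-like, 478 Node B-like, 184 Node C-like and 28 Node D-like, with 13 astrocyte-like, 31 oligodendrocyte-like and 3 microglia-like. In Vismodegib tumors 145, 177, 115 and 109 fell in the 4 stages in that order, with 16 astrocyte-like, 13 oligodendrocyte-like, 1 microglia-like and 1 endothelial-like. Class sizes moved too: Node D-like cells were 7.66% of all Vehicle and 37.0% of all Vismodegib cells and 2.68% and 18.9% of the cells with a SmoM2-EYFP UMI, and Node B-like cells were 46.3% and 20.9% of all cells and 45.7% and 30.7% of those with a UMI. These cells were deeper than the rest, at a median of 2493 against 1670 UMIs in Vehicle and 3011 against 1674 in Vismodegib tumors. Cells captured together in one droplet were not removed by a caller, and their part in these counts was not tested.

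Across the means of 9 classes and 11588 genes, the genes most like Cre by Pearson's r of log2 levels were Lhx1 (0.985), Igfbpl1 (0.980), Barhl1 (0.978), 1500016L03Rik (0.976) and Cacng2 (0.972). Atoh1 stood at 0.852, SmoM2-EYFP at 0.655 and Gt(ROSA)26Sor at 0.121. For SmoM2-EYFP they were Fam212b (0.980), Uchl3 (0.975), Bcat1 (0.974), Gas2 (0.972) and Stard7 (0.968), with Atoh1 at 0.690, Smo at 0.183 and Gt(ROSA)26Sor at -0.151. These are descriptions over 9 points that share libraries.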

How the data were processed

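Deposited tables of raw UMI counts per gene and barcode were analysed for 15 Drop-seq libraries, 1 per animal, grouped by the treatment and genotype labels. Per the study's methods, the authors made the counts with Drop-seq Tools and the STAR aligner. The submitters' processing notes give version 5.4b of STAR, which differs from the version in the study's methods. Per these methods, tumor barcodes that were mostly mouse against a spike-in of human HEK 293 cells were kept. Their reads, and all WT reads, were aligned to mm10 with both transgenes added. How much of each transgene the reference held, and the annotation version, are not given in the sources used here. Each library is a separate animal, so p-values measure the spread between animals.

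Kept cells needed at least 500 UMIs and 500 genes. Their UMIs, genes and mitochondrial share had to be at most 5 SD above the library's median. Tumor and WT cells were clustered separately by shared neighbours (30) of principal components at a resolution of 0.8 (igraph 0.11.9, scikit-learn 1.9.0). In this step 40 genes were left out, among them both transgenes. No doublet caller was run. Levels are in CPM, UMIs of a gene per 1000000 UMIs of the kept cells of an animal or class, and a sum needed at least 5 cells. Sums of the counts of each class and animal were tested over all genes with edgeR 4.0.16 (quasi-likelihood, TMM, filterByExpr, adjusted p under 0.05) in R 4.3.3, which was tested on simulated data. Single values were tested by exact permutation over animals, 2-sided, and class differences by exact sign permutation over tumors, with Benjamini-Hochberg adjustment over the family (scipy 1.17.1). Alternatives were DESeq2 1.42.0, no low-count filter, other cell limits and resolutions, and, for levels over all cells, all listed barcodes. Others were the 2 sets of tumors, the replicate number as a block, other added counts and reference genes, and each tumor left out. The genes named are both transgenes, the fixed lists by count, with values for Atoh1, Smo, Gt(ROSA)26Sor and the called list genes (1 of which is not reported here), and the 5 genes most like each transgene over class means among genes with at least 20 CPM in 1 class; Gli1, Thumpd3, Setd5, the genes of the Cre ratios and of the glial splits and Aqp4, Sox10 and C1qb as class checks were named besides. The members and lists were chosen with earlier results of these data known. The total UMIs per library, given with the results, set the precision, and intervals and floors cover counting error only. Positions come from GENCODE's annotation of GRCm38. Replicate numbers did not pair the tumors.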

Additional observations from a re-analysis of the deposited data

Results flagged for a closer look

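Of 38 groups of 5 values examined, 1 animal stood far from the other 4 in 2, and chance gives about 1 in 20. Cre in oligodendrocyte-like cells of Vismodegib 4 was 175 CPM, with the next tumor at 47.1, and SmoM2-EYFP in microglia-like cells of Vismodegib 5 was 2.49, from a single UMI where the other 4 tumors had none. The treatments differed in the steps of Cre between stages, in tests chosen after the values were seen. Log2 Node A-like over Node B-like Cre was higher by 0.65 in Vismodegib tumors (exact permutation test, adjusted p = 0.0476, all 5 above all Vehicle tumors). Node A-like over Node C-like Cre was higher by 0.87 (exact adjusted p = 0.0476, 4 of 5). The leading clusters of Node B-like and Node C-like cells differed between the treatments, as given in the results.

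Barcodes under 500 UMIs, which entered only the alternative that took all listed barcodes, also held transgene UMIs. Pooled by group, Cre was at 1844 CPM (95% Poisson interval 1695 to 2002, 736 barcodes) in Vehicle and at 411 (341 to 491, 732 barcodes) in Vismodegib tumors, against 1.58 (3 UMIs, 5831 barcodes) in WT. SmoM2-EYFP was at 19.4 (6 UMIs) in Vehicle and 13.6 (4 UMIs) in Vismodegib tumors, against 0.525 (1 UMI) in WT. These sums rest on few libraries, and the intervals cover counting error only. Vehicle 1 and 5 held 360 and 361 of the Vehicle barcodes and 279 and 286 of the 569 Cre UMIs. Vehicle 2, 3 and 4 held 9, 1 and 5 barcodes, and Vismodegib 3 held 0. Of the SmoM2-EYFP UMIs, 5 in Vehicle came from Vehicle 1, and all 4 in Vismodegib tumors came from Vismodegib 2.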

How the results depend on the processing

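Of the values that answer a comparison, 145 of 193 under other settings and 274 of 310 with 1 tumor left out kept direction and call; the cause of the changes below was not tested. The replicate numbers gave correlations of -0.219 to 0.417 between same-numbered tumors, so they do not pair them; with the replicate block the Cre difference over all cells was -1091 (exact p = 0.0625, the smallest that 5 pairs allow), and 29 genes in place of 12 were called in Node D-like cells.

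Left out one at a time, the tumors gave a SmoM2-EYFP difference over all cells of -8.41 to -4.39 and edgeR log2 fold changes of -0.19 to 0.066 (SmoM2-EYFP, Node A-like), -0.0037 to 0.18 (SmoM2-EYFP, Node B-like), -1.07 to -0.71 (Cre, Node B-like), -1.29 to -0.91 (Cre, Node C-like), -1.08 to -0.58 (Cre, Node D-like), -0.49 to -0.11 (Cre, Node A-like), -0.37 to -0.14 (SmoM2-EYFP, CGNP-like) and -0.39 to -0.12 (SmoM2-EYFP, Node C-like). The genes called ranged from 226 to 361 in Node B-like, 116 to 349 in Node C-like and 3 to 39 in Node D-like cells. They ranged from 147 to 238 (Node A-like), 1145 to 1908 (CGNP-like), 2 without Vehicle 5 to 44 (astrocyte-like, 31 with all tumors), 76 without Vismodegib 5 to 251 without Vismodegib 4 (oligodendrocyte-like, 143) and 0 without Vehicle 1, 2, 4 or 5 or Vismodegib 5 to 8 (microglia-like, 5). Where edgeR called 0, from 94 to 172 genes had an unadjusted p under 0.05, and DESeq2 called 3 with all tumors. Log2 ratios to the granule lineage genes ranged for Cre from -0.48 to -0.29 (astrocyte-like), -0.93 to -0.49 (oligodendrocyte-like), -1.26 to -0.67 (endothelial-like) and -0.77 to 0.037 (fibroblast-like), for SmoM2-EYFP from 0.63 to 1.04 (microglia-like) and 1.12 to 1.75 (fibroblast-like). The log2 odds ratio of co-detection ranged from -0.033 to 0.17, and SmoM2-EYFP in oligodendrocyte-like less Node B-like cells from -3.94 to 4.33.

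Genes called in Node A-like cells went from 220 to 416 within sets, 407 without the low-count filter and 332 by DESeq2. In Node B-like cells they went from 340 to 713 within sets and 567 by DESeq2, in Node C-like cells from 256 to 589, 520 without the filter and 413, and in Node D-like cells from 12 to 63, 137 and 49. At resolutions 0.4 and 1.2 they fell to 45 and 38 in Node C-like and to 0 and 9 in Node D-like cells. Where 0 were called, 321 genes had an unadjusted p under 0.05 (edgeR). With a 3 SD limit and without the filter they went from 143 to 38 and 290 (oligodendrocyte-like) and from 31 to 21 and 102 (astrocyte-like). SmoM2-EYFP in Node A-like cells turned to 0.047 with a 3 SD limit and 0.033 at resolution 0.4. Cre passed in Node B-like cells within sets (-0.75) and without the filter (-0.89), passed in Node D-like cells without the filter (-0.81), and did not pass in Node C-like cells at resolution 0.4 (-0.86) or 1.2 (-1.03, with 2315 cells of 1 cluster unnamed). Within 1 treatment 0 class pairs passed for either transgene, and the smallest p then exceeds the threshold.

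Against other references, Cre without Neurod1 was at -0.60 (astrocyte-like), -0.86 (oligodendrocyte-like) and -0.99 (endothelial-like). Against Atoh1 alone it was at -1.54 and -2.42, and against Barhl1 alone at 0.33 and -1.24, in oligodendrocyte-like and endothelial-like cells; both references were chosen after seeing the data. At resolution 1.2 Cre was at -0.95 for oligodendrocyte-like, -0.46 for microglia-like and -1.22 for endothelial-like cells. SmoM2-EYFP in fibroblast-like cells, at 0 UMIs, was at 1.61 without Neurod1, 1.24 at resolution 1.2 and -0.84 with 0.1 added. With 0.1 added the ratio was 0.85 for astrocyte-like, -0.88 for microglia-like and 0.78 for endothelial-like cells. In Vehicle and Vismodegib alone SmoM2-EYFP was at 1.29 and 2.08 for astrocyte-like, 3.09 and 3.82 for oligodendrocyte-like and 3.10 and 2.54 for endothelial-like cells, where 5 tumors cannot pass. Co-detection was at -0.14 in Vismodegib alone and -9.14e-05 with 10 bins of depth. Cre in Node C-like less Node B-like cells turned to -208 at resolution 0.4, to -0.43 percentage points in thinned shares and to -96.4 in Vismodegib alone, and SmoM2-EYFP in oligodendrocyte-like less Node B-like cells to -0.21 on the log2 scale and -2.87 in Vismodegib alone.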

Other observations

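In Vismodegib 3, 1 barcode of 131101 UMIs, above the upper limit on UMIs and left out, held 26 of the 107 SmoM2-EYFP UMIs of that table. Over all barcodes of that table the SmoM2-EYFP level was 41.1 CPM, against 33.1 in the kept cells. The 4 barcodes above the limits on UMIs, genes or mitochondrial share in that table held 10 Cre UMIs.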
